A study of Mus musculus with 9 samples.

Results

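The comparison described here set mouse TAMH hepatocytes given the herbicide diquat at 18 µM for 9 h against the same cells kept in medium alone for 9 h. It was chosen by the sample titles and used 6 of the 9 arrays of the study, 3 per group, on which 22180 genes were tested. The other 3 arrays hold cells given paraquat at 126 µM for 9 h, and they entered the fit to share its estimate of the spread. All groups were grown in DMEM/Ham's F-12 with dexamethasone, nicotinamide, gentamicin, insulin, transferrin and selenium, so the controls too carried a glucocorticoid and insulin. Cells were dosed at confluence. TAMH is a line established from the liver of mice with a TGF alpha transgene under a metallothionein promoter, so it is 1 immortal culture and not a panel of hepatocytes. The labels mention 3 culture dishes for each treatment but do not tie a dish to an array or call the dishes separate cultures. The p-values therefore measure the spread between these 3 samples per group, which may be technical.

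Diquat is a bipyridylium salt. Cellular flavoenzymes pass it an electron, oxygen takes that electron back as superoxide, and each turn of this cycle draws on NADPH, the cofactor that also keeps glutathione and thioredoxin reduced. Cells answer such a load through several known transcription programmes. NRF2 drives genes of glutathione, thioredoxin and heme metabolism. ATF4, translated when eIF2 alpha is phosphorylated, drives amino acid import and synthesis and the factors CHOP and ATF3. MAP kinases drive immediate early factors and AP-1, and p53 drives cell cycle arrest genes. In liver cells these programmes run beside a set of liver-enriched transcription factors that maintain urea, lipid, bile acid and plasma protein genes.

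RNA was hybridized to Affymetrix Mouse Gene 2.1 ST arrays, and levels are deposited log2 values that run from 3.89 to 13.19. Differences are in log2 units, so that 1 is a 2-fold change, and levels of different genes cannot be set against each other. Array medians over all features lay between 5.95 and 6.04, and no 2 arrays were identical. Correlations between arrays over the 22180 genes tested ran from 0.9952 to 0.9991. Diquat replicate 3 stood farthest from its group mates, with a root-mean-square difference of 0.134 against 0.102 and 0.115 for the other diquat arrays and 0.0714 to 0.0821 for the medium arrays.

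The labelled cell type was checked against markers. Of 13 hepatocyte markers 12 were measured, and their mean level lay between 10.27 and 10.36 in the medium arrays and between 10.16 and 10.19 in the diquat arrays, with Alb highest at 12.73. Cholangiocyte and progenitor markers averaged 7.80 to 7.86 in medium and 7.93 to 7.99 with diquat, with Sox9 highest at 10.48. Stellate cell markers ran from 6.81 to 6.86 in medium and from 6.73 to 6.84 with diquat, macrophage markers from 6.04 to 6.06 and 5.98 to 6.08, and endothelial markers from 5.80 to 5.84 and 5.73 to 5.84. The hepatocyte mean was thus lower in every diquat array. The progenitor mean was higher in each, but its members' median log2 change was 0.02, and 1 member, Krt23, had the largest change by far (log2 change 0.84). The other 3 lists overlapped between groups. Their highest markers were Dcn at 11.01, Cd68 at 7.87 and Oit3 at 7.04, and the lowest hepatocyte marker was Serpina1e at 5.91. As levels of different genes cannot be set against each other, the means of these lists do not rank cell types. Among the hepatocyte markers 0 were called higher and 4 lower (Cps1, Ttr, Apob and Hnf4a), and among 7 progenitor markers 2 were higher (Krt23 and Sox9) and 2 lower (Krt19 and Krt7). The calls of Cps1, Ttr, Krt23, Sox9 and Krt7 held when each array was left out in turn. Hnf4a, a master regulator of hepatocyte identity, passed narrowly (log2 change -0.19, adjusted p = 0.04999) and lost its call without each of the 6 arrays (adjusted p between 0.056 and 0.175). Of 9 macrophage markers 1, Cd68, was called higher (log2 change 0.40, adjusted p = 0.0343), and of the 10 stellate cell and 10 endothelial markers 0 were called. The calls of Apob, Krt19 and Cd68 were lost without any 1 of 3, 5 and 4 of the arrays (adjusted p up to 0.0809, 0.132 and 0.103). In bulk RNA, fewer cells of a type and less RNA per cell cannot be told apart.

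After 9 h of diquat, 1558 genes (7.02% of those tested) passed an adjusted p of 0.05, 917 higher (4.13%) and 641 lower (2.89%). At least 1.5-fold changes that also passed were seen for 109 genes (0.491%), 82 higher and 27 lower, and at least 2-fold changes for 22 (0.0992%), 18 higher and 4 lower. Most changes were small: the median fold was 1.21 among genes called higher and 1.19 among those called lower, with a median standard error of 0.0495 on the log2 scale. All 1558 genes called had no overlap between the 3 diquat and the 3 medium arrays, as had 21.3% of all genes tested. Calls are said here to hold if they passed with each of the 6 arrays left out in turn. That was so for 659 of the 1558, for 105 of the 109 of at least 1.5-fold and for all 22 of at least 2-fold. The 4 exceptions at 1.5-fold were Crp and the small nucleolar RNAs Snora75, Snord49a and Snord52. The share of calls that were higher was 58.9% on the deposited values, 77.5% after centring arrays on their medians and 45.2% after quantile normalization, so the balance of small rises and falls depends on scaling. The total was 887, 802, 1000 and 1052 without medium replicate 1, 2 or 3 or diquat replicate 1, and 1908 without diquat replicate 2.

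Calls depended strongly on level. With the genes in 4 equal bins by mean level, in the lowest bin 0.198% were called, in the next 1.62%, then 9.75% and, in the highest bin, 16.5%. A list of well expressed genes can therefore be expected to hold more calls than the 4.13% and 2.89% over all genes. Rises outnumbered falls in both upper bins (320 against 221 and 564 against 352). Falls were the more frequent in the second bin, at 62 against 28.

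**Figure D1:**
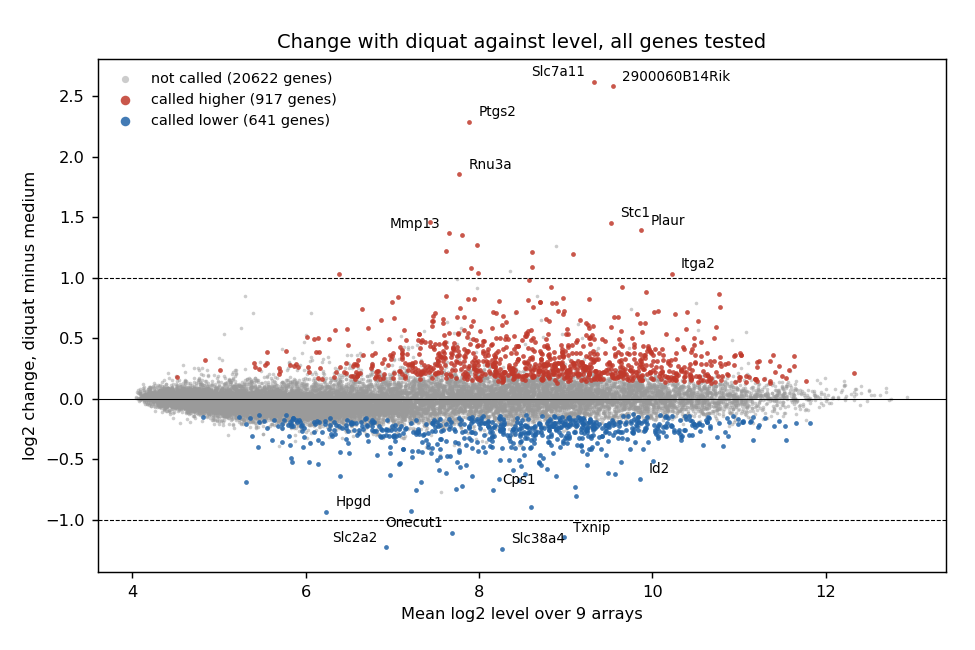
Change with diquat (diquat minus medium, log2) against the mean level over 9 arrays for all 22180 genes, with 917 genes called higher in red and 641 called lower in blue; dashed lines mark 2-fold. The largest rises are those of Slc7a11, 2900060B14Rik and Ptgs2, and few genes with a mean level under 6 were called.

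The 30 largest rises among annotated genes ran from 1.73-fold to 6.15-fold, and the 30 largest falls from 1.47-fold to 2.36-fold. These genes were picked by their change in these arrays, so their size is a description. They are taken up below by role, together with 51 gene lists that held 1509 measured entries. Some genes sit in several lists. Over all genes tested the median log2 change was -0.02.

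**Figure D2:**
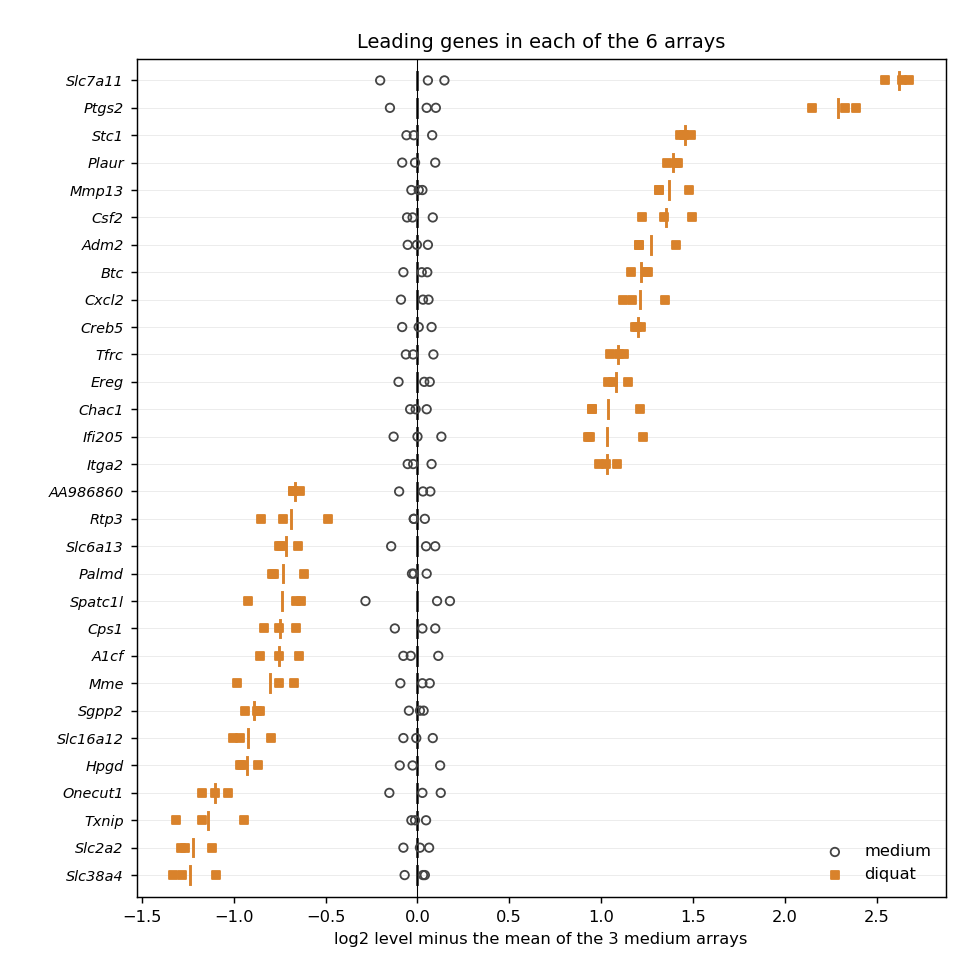
Level of the 15 genes with the largest rise and the 15 with the largest fall in each of the 3 medium (open circles) and 3 diquat arrays (squares), as log2 difference from the medium mean; vertical bars are group means. The genes were chosen without overlap between groups, and Slc7a11 and Ptgs2 lie farthest right.

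The largest rise of all was in cystine import. Slc7a11, the light chain of the cystine-glutamate exchanger, read 7.71, 7.45 and 7.80 in the medium arrays and 10.20, 10.29 and 10.33 in the diquat arrays (log2 change 2.62 ± 0.0797 (SE), 6.15-fold, adjusted p = 1.84e-07). Its 3 diquat arrays lay within 0.13 of each other and 2.40 above the highest medium array. Chac1, an enzyme that breaks glutathione down, read 7.30, 7.24 and 7.21 in the medium arrays and 8.20, 8.20 and 8.46 in the diquat arrays (log2 change 1.04 ± 0.0709 (SE), 2.05-fold, adjusted p = 2.60e-05), and its replicate 3 was the highest of the diquat arrays. Cth, which makes cysteine by transsulfuration, rose by 0.72 ± 0.0387 (SE; adjusted p = 4.73e-06) and the serine and alanine carrier Slc1a4 by 0.72 (adjusted p = 3.88e-05). The efflux pump Abcc4 rose by 0.57 (adjusted p = 6.66e-05). Slc3a2, the heavy chain that partners Slc7a11, rose less, by 0.27 (adjusted p = 0.0128), and lost its call without medium replicate 2 (adjusted p = 0.0614 without medium replicate 2). Gclm was not called. This gene, the modifier subunit of its rate-limiting enzyme, read 10.87, 10.81 and 10.82 in the medium arrays and 10.82, 10.86 and 10.83 in the diquat arrays, overlapping between groups, with a 95% interval of the log2 change of -0.09 to 0.09. In the list of cystine import and glutathione synthesis 8 of 21 measured members were called higher and 0 lower, with a median of 0.04, and 6 calls held. Its per-array mean difference from the medium mean was 0.03, -0.02 and -0.01 in the medium arrays and 0.28, 0.27 and 0.32 in the diquat arrays, so the list's mean sits far above its median because a few members carry it.

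Among thioredoxin genes the largest change was a fall. Txnip, which binds and inhibits thioredoxin and is also a glucose sensor, read 9.70, 9.62 and 9.64 in the medium arrays and 8.48, 8.34 and 8.71 in the diquat arrays (log2 change -1.14 ± 0.0850 (SE), 2.21-fold, adjusted p = 4.11e-05). Diquat replicate 3 fell least of the 3 and still lay well under every medium array. Sesn2, a stress-induced sestrin that restrains mTORC1, rose by 0.83 ± 0.0406 (SE; adjusted p = 2.62e-06). The cytosolic thioredoxin reductase Txnrd1 read 10.23, 10.26 and 10.24 in the medium arrays and 10.66, 10.64 and 10.68 in the diquat arrays (log2 change 0.42 ± 0.0353 (SE), 1.33-fold, adjusted p = 0.000107), with no overlap and little spread. The related reductase Txnrd3 rose by 0.51 (adjusted p = 0.00521). In the thioredoxin, peroxiredoxin and NADPH supply list 5 of 24 measured members were called higher and 4 lower, and 3 and 1 of these calls held. The counts were 6 and 1 after centring and 4 and 5 after quantile normalization. Higher calls numbered 3 without medium replicate 1 or diquat replicate 1, and lower calls 1 without medium replicate 1 and 2 without medium replicate 2 or medium replicate 3.

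In the list of superoxide and peroxide removal 15% of measured members were called, against 7.02% over all genes. Its median level was 8.31, in the level bin where 9.75% were called. Hmox1, heme oxygenase 1, rose, with 7.77, 7.69 and 7.74 in the medium arrays and 8.57, 8.44 and 8.34 in the diquat arrays (log2 change 0.72 ± 0.0552 (SE), 1.64-fold, adjusted p = 5.35e-05), and its 3 diquat arrays were all at least 0.57 above the highest medium array. Osgin1, an oxidative stress growth inhibitor, rose by 0.39 (adjusted p = 0.00303). Sod1, Sod2 and Cat, which encode the cytosolic and mitochondrial superoxide dismutases and catalase, had log2 changes of 0.08, 0.03 and -0.10 (adjusted p = 0.301, 0.739 and 0.311), with 95% intervals of -0.01 to 0.17, -0.06 to 0.11 and -0.21 to 0.02. Nqo1, a quinone reductase and NRF2 target, read 5.46, 5.46 and 5.46 in the medium arrays and 5.45, 5.46 and 5.36 in the diquat arrays, near the floor of the array and overlapping. Srxn1, the sulfiredoxin that repairs peroxiredoxins, read 9.20, 9.12 and 9.14 in the medium arrays and 9.43, 9.37 and 9.23 in the diquat arrays; the groups did not overlap, but it missed the threshold (log2 change 0.19, adjusted p = 0.0514). In this list 2 of 20 measured members were called higher and 1 lower, with a median of -0.04, and its 1 lower member, the extracellular dismutase Sod3 (log2 change -0.29, adjusted p = 0.0196), did not hold. Of 17 measured electron donors and organic cation carriers, the genes that can reduce viologens or move them across membranes, 1 was called: Cyb5r1, a cytochrome b5 reductase, rose by 0.30 (adjusted p = 0.00471).

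The integrated stress response list held the largest share of calls of the 51: 14 of 24 measured members were called higher and 0 lower, with a median of 0.28, and 13 of the 14 calls held. Per array its mean difference from the medium mean was 0.02, 0.00 and -0.02 in the medium arrays and 0.36, 0.38 and 0.37 in the diquat arrays, so the 3 diquat arrays were nearly equal. Atf4, its central factor, read 8.79, 8.92 and 8.86 in the medium arrays and 9.41, 9.51 and 9.42 in the diquat arrays (log2 change 0.59 ± 0.0435 (SE), 1.51-fold, adjusted p = 3.88e-05). Of its partners and targets, Atf3, a repressing bZIP factor, rose by 0.93 (adjusted p = 2.72e-05) and Ddit3, which encodes CHOP, by 0.80 (adjusted p = 3.40e-06). The pseudokinase Trib3, which feeds back on ATF4, rose by 0.82 (adjusted p = 2.91e-06), and the lipoprotein receptor Vldlr by 0.76 (adjusted p = 1.91e-05). No member was called lower under any alternative tried.

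Genes that make and import amino acids rose in part. In the serine, one-carbon, proline and asparagine list 8 of 22 measured members were called higher and 1 lower, and 7 and 1 of these calls held. Mthfd2, a mitochondrial folate enzyme, rose by 0.70 ± 0.0495 (SE; adjusted p = 3.11e-05), its relative Aldh1l2 by 0.46, the proline enzyme Aldh18a1 by 0.44, the serine enzyme Psph by 0.44 and asparagine synthetase, Asns, by 0.35. The exception was Glul, glutamine synthetase, which fell by 0.46 (adjusted p = 0.000364). Among amino acid transporters 10 of 27 measured members were called higher and 3 lower, of which 5 and 2 held, and higher calls numbered 5 without medium replicate 2. The cationic carrier Slc7a1 rose by 0.72 (adjusted p = 2.72e-05) and Slc7a5, a leucine importer, by 0.47 (adjusted p = 0.000217). Slc38a4, a sodium-coupled neutral amino acid carrier of hepatocytes, showed the largest fall of the comparison and read 9.08, 9.09 and 8.98 in the medium arrays and 7.77, 7.72 and 7.95 in the diquat arrays (log2 change -1.24 ± 0.0648 (SE), 2.36-fold, adjusted p = 4.32e-06). Slc6a13, a GABA and taurine carrier, fell too (log2 change -0.72, adjusted p = 0.000253). The closest arrays of the 2 groups were 1.03 apart for Slc38a4 and 0.51 apart for Slc6a13.

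Cytosolic aminoacyl-tRNA synthetases, which charge tRNAs and include known ATF4 targets, held small rises. Here 10 of 20 measured members were called higher and 0 lower, with a median of 0.15, and 17 of the 20 had a positive change. The largest were Cars at 0.40, Tars at 0.39, Iars at 0.29 and Nars at 0.24 (adjusted p = 0.000364, 0.000436, 0.0041 and 0.00431), and these 4 calls held. The count was 5 without medium replicate 1 or medium replicate 3, 4 without medium replicate 2 and 6 without diquat replicate 1 or diquat replicate 3. Among translation initiation and mTORC1 genes 5 of 28 measured members were called higher and 1 lower. Besides Sesn2, the folliculin partner Fnip1 rose by 0.43 (adjusted p = 0.000839), while Deptor, an inhibitor within the mTOR complexes, fell (log2 change -0.30, adjusted p = 0.00767). Higher calls in this list numbered 3 without medium replicate 1 or medium replicate 3 and 2 without medium replicate 2.

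Promoter sequence is shown for some leading genes as a description, and which factors act on them was not tested. RefSeq promoters of the GRCm38.p6 assembly (250 bases before to 50 after the start) were found for 23 of the 30 highest genes, 24 of the 30 lowest and 16990 of all genes tested, some with several starts. The 250 bases before the start were searched on both strands for the C/EBP-ATF element TGATGNAA, which ATF4 with C/EBP partners can bind, the CRE TGACGTCA, the AP-1 site TGANTCA and the antioxidant response element TGACNNNGC, which can overlap an AP-1 site. Capitals mark these motifs, forward or reverse, in lines of 100 bases each written 5′ to 3′ on the gene's strand. Slc7a11 and Creb5 are shown by a rule on the 10 highest genes, and Chac1, Atf3 and Mmp13 were chosen after their values were seen. The printed genes include every one of the 30 highest found with the C/EBP-ATF element. Ifi205, Sesn2 and Dusp5, which held the antioxidant response element, are not printed.
Slc7a11 (chr3:50443617-50443716, minus strand): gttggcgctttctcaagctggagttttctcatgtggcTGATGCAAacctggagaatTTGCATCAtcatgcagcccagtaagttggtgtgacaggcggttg
Creb5, first start (chr6:53287203-53287302, plus strand): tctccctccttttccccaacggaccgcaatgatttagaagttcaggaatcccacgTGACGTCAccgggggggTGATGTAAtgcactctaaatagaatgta
Creb5, second start (chr6:53573263-53573362, plus strand): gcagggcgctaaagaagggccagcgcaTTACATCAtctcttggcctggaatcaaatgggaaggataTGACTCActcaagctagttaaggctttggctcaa
Chac1 (chr2:119351003-119351102, plus strand): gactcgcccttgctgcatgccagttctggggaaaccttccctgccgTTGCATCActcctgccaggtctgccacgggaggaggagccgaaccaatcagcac
Atf3 (chr1:191183390-191183489, minus strand): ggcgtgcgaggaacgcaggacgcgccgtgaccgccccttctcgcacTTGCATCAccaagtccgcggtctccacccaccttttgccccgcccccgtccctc
Mmp13 (chr9:7272414-7272513, plus strand): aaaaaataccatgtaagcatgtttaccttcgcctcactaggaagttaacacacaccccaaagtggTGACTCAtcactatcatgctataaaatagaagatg

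Slc7a11 held the C/EBP-ATF element once on each strand, Creb5 held one at either start and also a CRE or an AP-1 site, and Chac1 and Atf3 held one reverse copy each. Mmp13 held an AP-1 site. The C/EBP-ATF element was in 4 of the 23 promoters of the highest genes (17.4%), in 0 of the 24 of the lowest and in 3.40% of all 16990. Among all 705 promoters of genes called higher it was in 4.68%, and among 482 of genes called lower in 3.53%. AP-1 sites were in 5 of 23 (21.7%), 4 of 24 (16.7%) and 7.44% of all, so the highest and lowest genes both exceeded the share over all genes. The antioxidant response element was in 3 of 23 (13%), 3 of 24 (12.5%) and 12.3%, and the CRE in 1 of 23 (4.35%), 0 of 24 and 2.30%. A match is a run of letters and not a measured binding site, and no test was made.

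Immediate early transcription factors, the first genes switched on by MAP kinases, held many higher calls at 9 h. In this list 15 of 31 measured members were called higher and 0 lower, with a median of 0.20 and 26 of 31 members positive, and 10 of the 15 calls held. The survival gene Ier3 rose by 0.88 ± 0.0523 (SE; adjusted p = 9.34e-06) and the zinc finger factor Egr1 by 0.68 (adjusted p = 0.000139). The orphan receptor Nr4a1 rose by 0.52, the AXIN1-induced factor Csrnp1 by 0.46, the small Maf protein Mafk, a partner of NRF2, by 0.45 and Egr2 by 0.43 (adjusted p = 7.39e-05, 0.00767, 0.000396 and 0.00114). Creb5, a bZIP factor that pairs with JUN, is in none of the lists and read 8.20, 8.29 and 8.36 in the medium arrays and 9.50, 9.48 and 9.47 in the diquat arrays (2.30-fold, adjusted p = 6.70e-07). Its 3 diquat arrays spanned 0.03.

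Inhibitors that MAP kinase signalling induces against itself held many higher calls as well. Of this list 15 of 32 measured members were called higher and 1 lower, with a median of 0.18, and 10 of the higher calls held. The nuclear ERK phosphatase Dusp5 rose by 0.83 (adjusted p = 2.38e-06) and Dusp4 by 0.82 (adjusted p = 0.00012). Spry4, a sprouty inhibitor of receptor signalling, rose by 0.55, and Rgs16, which turns off G proteins, by 0.54 (adjusted p = 3.44e-05 and 0.000393). The mRNA-decay factors Zfp36 and Zfp36l1 rose by 0.51 and 0.50 (adjusted p = 0.00333 and 0.000662). Mean differences per array were 0.03, -0.01 and -0.02 in the medium arrays and 0.20, 0.20 and 0.25 in the diquat arrays.

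Of the EGF receptor ligands, Btc, Ereg and Hbegf rose. Btc, betacellulin, read 6.91, 6.78 and 6.88 in the medium arrays and 8.02, 8.10 and 8.11 in the diquat arrays (log2 change 1.22 ± 0.0648 (SE), 2.33-fold, adjusted p = 4.39e-06). Ereg, epiregulin, read 7.10, 7.24 and 7.27 in the medium arrays and 8.27, 8.35 and 8.24 in the diquat arrays (log2 change 1.08 ± 0.0528 (SE), 2.12-fold, adjusted p = 2.62e-06). The closest arrays of the 2 groups were 1.11 apart for Btc and 0.97 apart for Ereg. Hbegf, heparin-binding EGF-like growth factor, rose by 0.70 (adjusted p = 2.72e-05), and Rhbdf2, which guides the sheddase ADAM17, by 0.56 (adjusted p = 1.29e-05). Tgfa, the mouse gene of the ligand carried as a transgene, changed by 0.15 (adjusted p = 0.23); whether its probes read the transgene was not tested. The receptor Erbb3 fell by 0.40 (adjusted p = 0.0021) and Fgfr2 by 0.49 (adjusted p = 0.00666). In this list of ligands, receptors and shedding 4 of 24 measured members were called higher and 2 lower, all 6 calls held, and the median was -0.03 (0.01 after centring). After quantile normalization 6 were lower.

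Prostaglandin genes changed at both ends of the pathway. Ptgs2, the inducible cyclooxygenase that makes prostaglandin H, read 6.46, 6.26 and 6.51 in the medium arrays and 8.74, 8.56 and 8.80 in the diquat arrays (log2 change 2.29 ± 0.0848 (SE), 4.89-fold, adjusted p = 6.46e-07). Hpgd, the dehydrogenase that inactivates prostaglandins, read 6.81, 6.74 and 6.96 in the medium arrays and 5.88, 5.87 and 5.97 in the diquat arrays (log2 change -0.93 ± 0.0557 (SE), 1.91-fold, adjusted p = 9.70e-06). The diquat arrays of Ptgs2 were all at least 2.05 above the medium arrays, and those of Hpgd all at least 0.77 below them. Abcc4, which also exports prostaglandins, and the receptor Ptger4 rose (log2 change 0.47, adjusted p = 0.00137). In the list 3 of 23 measured members were called higher and 1 lower, and all 4 calls held. Its median level was low, at 6.24, in the range where few genes were called.

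Secreted cytokines rose in a limited set. Csf2, which encodes GM-CSF, read 7.06, 6.92 and 6.95 in the medium arrays and 8.47, 8.20 and 8.32 in the diquat arrays (log2 change 1.35 ± 0.0657 (SE), 2.56-fold, adjusted p = 2.62e-06). The neutrophil chemokine Cxcl2 read 7.86, 7.74 and 7.89 in the medium arrays and 9.00, 9.18 and 8.95 in the diquat arrays (log2 change 1.21 ± 0.0717 (SE), 2.32-fold, adjusted p = 9.27e-06). Neither overlapped between groups, and replicate 2 was the lowest diquat array for Csf2 and the highest for Cxcl2. Lif, a cytokine of the interleukin 6 family, rose by 0.71 (adjusted p = 0.000105), Cxcl1 by 0.44 and Cxcl10 by 0.44 (adjusted p = 0.00437 and 0.00606), and Csf1, which encodes M-CSF, fell by 0.32 (adjusted p = 0.0057). In the chemokine and cytokine list 9 of 32 measured members were called higher and 1 lower, and 7 and 1 of these calls held.

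Among secreted hormones the glycoprotein Stc1 read 8.68, 8.58 and 8.54 in the medium arrays and 10.05, 10.09 and 10.03 in the diquat arrays (log2 change 1.46 ± 0.0671 (SE), 2.74-fold, adjusted p = 2.31e-06). Adm2, intermedin, a vasodilator peptide, read 7.14, 7.03 and 7.08 in the medium arrays and 8.29, 8.29 and 8.49 in the diquat arrays (log2 change 1.27 ± 0.0673 (SE), 2.42-fold, adjusted p = 4.39e-06). The diquat arrays of both were tightly grouped, with replicate 3 the highest for Adm2. Vegfa, the angiogenic growth factor, rose by 0.79, the activin subunit Inhbe by 0.67, the IGF-binding Igfbp1 by 0.65 and Stc2 by 0.64 (adjusted p = 6.45e-05, 0.000409, 0.00777 and 6.66e-05). Of this list 13 of 29 measured members were called higher and 2 lower, with a median of 0.13, and 10 of the higher and 0 of the lower calls held.

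Proteases and receptors that act on the matrix were next. Plaur, the urokinase receptor, read 8.95, 8.88 and 9.06 in the medium arrays and 10.37, 10.38 and 10.32 in the diquat arrays (log2 change 1.39 ± 0.0515 (SE), 2.63-fold, adjusted p = 6.46e-07). Mmp13, collagenase 3, read 6.84, 6.88 and 6.90 in the medium arrays and 8.35, 8.19 and 8.19 in the diquat arrays (log2 change 1.37 ± 0.0541 (SE), 2.58-fold, adjusted p = 8.06e-07). The closest arrays of the 2 groups were 1.26 apart for Plaur and 1.29 apart for Mmp13. Plat, tissue plasminogen activator, rose by 0.50 (adjusted p = 7.39e-05), and Timp1, an inhibitor of matrix proteases, by 0.39 (adjusted p = 0.00279). In the list 5 of 24 measured members were called higher and 0 lower, and 4 calls held.

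Of the p53 targets 8 of 27 measured members were called higher and 0 lower, with a median of 0.11 and 23 of 27 members positive, and 6 calls held. The polo-like kinases Plk3 and Plk2 rose by 0.92 and 0.44, the death receptor Tnfrsf10b by 0.43, the p53 ubiquitin ligase Mdm2 by 0.38 and the cell cycle inhibitor Cdkn1a by 0.35 (adjusted p = 2.48e-05, 0.000396, 0.000135, 0.00281 and 0.000946). In the BCL2, caspase and death receptor list 4 of 31 measured members were called higher and 1 lower, and 3 calls held. The necroptosis effector Mlkl rose by 0.29 and the TWEAK receptor Tnfrsf12a by 0.28 (adjusted p = 0.00785 and 0.00147). This is 16.1% called, against 7.02% over all genes. The list's median level was 8.52, in the highest level bin, where 16.5% of genes were called. Of hypoxia-inducible genes outside glycolysis 10 of 25 measured members were called higher and 1 lower, with a median of 0.19, and 6 and 1 of these calls held. They included Ndrg1, a differentiation-linked stress gene, at 0.76, and the lipid droplet gene Hilpda at 0.67 (adjusted p = 1.22e-05 and 4.22e-05), while the neurite gene Nrn1 fell by 0.41 (adjusted p = 0.0115). Higher calls numbered 6 without medium replicate 2 or medium replicate 3.

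Iron genes moved at import and export. Tfrc, the transferrin receptor, read 7.86, 7.82 and 7.97 in the medium arrays and 9.01, 8.93 and 8.98 in the diquat arrays (log2 change 1.09 ± 0.0519 (SE), 2.13-fold, adjusted p = 2.55e-06). Slc40a1, ferroportin, the iron exporter, read 9.31, 9.30 and 9.15 in the medium arrays and 8.73, 8.45 and 8.85 in the diquat arrays (log2 change -0.58 ± 0.0954 (SE), 1.49-fold, adjusted p = 0.0058), with diquat replicate 2 the lowest. The groups of both were apart. Slc25a37, mitoferrin, rose by 0.50 (adjusted p = 0.000527). In the iron list 5 of 27 measured members were called higher and 2 lower, of which these 3 calls held; higher calls numbered 3 without medium replicate 1, diquat replicate 1 or diquat replicate 3 and 2 without medium replicate 2 or medium replicate 3. After quantile normalization the counts were 4 and 4.

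Glucose genes split between transporters. Slc2a2, GLUT2, the transporter of differentiated hepatocytes, read 7.69, 7.74 and 7.60 in the medium arrays and 6.41, 6.39 and 6.56 in the diquat arrays (log2 change -1.22 ± 0.0543 (SE), 2.33-fold, adjusted p = 1.92e-06). Slc2a1, the widely expressed GLUT1, rose by 0.36 (adjusted p = 0.000747), as did hexokinase 2, Hk2, by 0.41 and the glycolytic regulator Pfkfb3 by 0.45 (adjusted p = 0.00114 and 0.00505). G6pc, the phosphatase that frees glucose, fell by 0.52 (adjusted p = 0.0012). Gapdh, a glycolytic enzyme, changed by 0.04 (adjusted p = 0.567; -0.02 after quantile normalization). In the list of glucose transport, glycolysis and gluconeogenesis 3 of 33 measured members were called higher and 6 lower, and 3 and 3 of these calls held. Lower calls numbered 3 without medium replicate 1. Slc2a1 was named after its value was seen.

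Solute carriers as a family were called often: of 361 measured, 25 were higher and 23 lower (13.3%, against 7.02% over all genes), at a median level of 6.61. Of these calls 14 and 15 held. Higher calls numbered 16 without medium replicate 1 and 15 without medium replicate 2, and lower calls 15 without medium replicate 1. The carriers with the largest falls were Slc38a4, Slc2a2, Slc16a12 and Slc6a13. Slc16a12, a creatine carrier, read 7.88, 7.97 and 7.81 in the medium arrays and 7.09, 6.88 and 6.92 in the diquat arrays (log2 change -0.92 ± 0.0900 (SE), 1.90-fold, adjusted p = 0.000256). Slc27a2, a fatty acid carrier and acyl-CoA synthetase of liver, fell by 0.63 and the pyruvate and lactate carrier Slc16a7 by 0.56 (adjusted p = 0.00475 and 0.00121). The split of higher and lower carriers was 27 and 14 after centring and 23 and 32 after quantile normalization.

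Some genes of differentiated liver fell. Onecut1, the factor HNF6, read 8.45, 8.55 and 8.27 in the medium arrays and 7.39, 7.25 and 7.32 in the diquat arrays (log2 change -1.10 ± 0.0813 (SE), 2.15-fold, adjusted p = 3.88e-05), with the diquat arrays at least 0.88 below every medium array. The bile acid receptor Nr1h4 fell by 0.42 (adjusted p = 0.00221) and Xbp1, a factor of secretory cells, by 0.39 (adjusted p = 0.00195). In the liver transcription factor list 2 of 33 measured members were called higher and 9 lower, with a median of -0.10, and 0 and 4 of these calls held. Lower calls numbered 5 without medium replicate 1 or medium replicate 2 and 4 without medium replicate 3 or diquat replicate 1, with 6 after centring and 12 after quantile normalization. A1cf, the RNA-binding cofactor of ApoB editing, read 7.94, 7.79 and 7.75 in the medium arrays and 6.97, 7.18 and 7.07 in the diquat arrays (log2 change -0.75 ± 0.102 (SE), 1.69-fold, adjusted p = 0.00188). In the same arrays the mean of the hepatocyte markers was lower by the amounts given above, and the part of a changed cell makeup in these falls was not tested.

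Plasma protein genes followed in part. Of this list 0 of 38 measured members were called higher and 5 lower, with a median of -0.12, of which 2 held: the fibrinogen chain Fga fell by 0.56 and transthyretin, Ttr, by 0.34 (adjusted p = 0.00197 and 0.00121). Lower calls numbered 2 without medium replicate 1, medium replicate 2 or diquat replicate 1. Crp, C-reactive protein, had a log2 change of -0.62 (adjusted p = 0.0246) whose call was lost in 4 of the 6 fits that leave out 1 array (adjusted p = 0.0869 without medium replicate 1, adjusted p = 0.107 without medium replicate 2, adjusted p = 0.0539 without diquat replicate 1 and adjusted p = 0.056 without diquat replicate 2). Albumin, Alb, changed by -0.01 (adjusted p = 0.945) on the deposited values and 0.03 after centring. Of complement and coagulation genes 1 of 35 measured members were called higher and 3 lower, and 1 and 1 held. Tissue factor, F3, rose by 0.46 and the lectin pathway protease Masp1 fell by 0.38 (adjusted p = 0.000364 and 0.00184). This list had 11.4% called at a median level of 7.05, in the level bin where 9.75% were called.

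In the urea cycle and amino acid breakdown list 0 of 31 measured members were called higher and 6 lower, with a median of -0.08, and 4 calls held. Cps1, the first enzyme of the urea cycle, read 8.71, 8.78 and 8.56 in the medium arrays and 7.85, 7.93 and 8.02 in the diquat arrays (log2 change -0.75 ± 0.113 (SE), 1.68-fold, adjusted p = 0.0035). Tat, the tyrosine aminotransferase that glucocorticoids induce, read 8.92, 8.82 and 8.82 in the medium arrays and 8.33, 8.34 and 8.31 in the diquat arrays (log2 change -0.53 ± 0.0698 (SE), 1.44-fold, adjusted p = 0.00163). The groups of both were well apart. The hydroxyproline enzyme Prodh2 fell by 0.36 and the glycine decarboxylase Gldc by 0.30 (adjusted p = 0.000682 and 0.00145). In the insulin, FOXO and glucocorticoid list 3 of 31 measured members were called higher and 7 lower, with a median of -0.10, and 2 and 4 held; the insulin receptor substrate Irs1 fell by 0.44 and Zbtb16, a glucocorticoid-responsive factor, by 0.30 (adjusted p = 0.00866 and 0.0045). Lower calls in it numbered 4 without medium replicate 1.

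In the lipid lists a minority of members was called, more of them lower than higher. In the fatty acid oxidation and ketone list 0 of 29 measured members were called higher and 9 lower, with a median of -0.13, and 1 of the 29 had a positive change. Of these calls 3 held, among them Acot1, an acyl-CoA thioesterase, and Ppara, the receptor that drives the pathway, which fell by 0.30 and 0.25 (adjusted p = 0.00698 and 0.0115). Lower calls numbered 4 without medium replicate 1 and 3 without medium replicate 2, with 4 after centring and 14 after quantile normalization. In the fatty acid synthesis and triglyceride list 1 of 29 measured members were called higher and 6 lower, and 1 and 1 held: the lipase Pnpla3 fell by 0.52 and the phosphatidate phosphatase Lpin1 rose by 0.28 (adjusted p = 0.00851 and 0.00578). Lower calls there numbered 2 without medium replicate 1 and 3 without medium replicate 2. Of cholesterol genes 3 of 29 measured members were called higher and 5 lower, and 1 and 2 held; the sterol exporters Abcg8 and Abcg5 fell by 0.46 and 0.37 and the lysosomal transporter Npc1 rose by 0.44 (adjusted p = 0.00746, 0.000521 and 0.00057). Lower calls numbered 2 without medium replicate 1 and 3 without diquat replicate 1, with 3 after centring. Outside the lists, the fatty acid receptor Cd36 fell by 0.63, the branched-chain oxidase Acox2 by 0.62 and the peroxisomal membrane protein Pxmp4 by 0.63 (adjusted p = 0.000916, 1.19e-05 and 0.000712).

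On the deposited values, calls in the P450 and conjugation lists were all lower ones, and those among bile acid genes went both ways. The shares called were 5.41% for the P450 list, 22.9% for conjugation and 21.7% for bile acid genes, against 7.02% over all genes. Of cytochromes P450 of families 1 to 4 0 of 37 measured members were called higher and 2 lower, at a median level of 5.35, and of these 2 the call of Cyp2d22, a drug-oxidizing enzyme, held (log2 change -0.41, adjusted p = 0.00349). Of conjugation enzymes 0 of 35 measured members were called higher and 8 lower, and 4 held, led by the glutathione transferases Gstt2 at -0.51, Gstk1 at -0.35 and Gstt1 at -0.30 (adjusted p = 0.006, 0.00901 and 0.0079). The split was 2 and 6 after centring and 2 and 9 after quantile normalization, and lower calls numbered 5 without medium replicate 1 and 4 without medium replicate 2. Of bile acid genes 2 of 23 measured members were called higher and 3 lower, and 2 and 1 held; besides Abcc4 and Nr1h4, the canalicular pump Abcc2 rose by 0.29 (adjusted p = 0.00279). Lower calls numbered 1 after centring.

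Several large falls lie outside the lists. The phosphatase Sgpp2, which degrades sphingosine 1-phosphate, read 9.18, 9.16 and 9.10 in the medium arrays and 8.27, 8.29 and 8.21 in the diquat arrays (log2 change -0.89 ± 0.0844 (SE), 1.85-fold, adjusted p = 0.000217). The membrane peptidase neprilysin, Mme, read 9.67, 9.63 and 9.51 in the medium arrays and 8.85, 8.62 and 8.93 in the diquat arrays (log2 change -0.80 ± 0.0762 (SE), 1.75-fold, adjusted p = 0.000217). The closest arrays of the 2 groups were 0.81 apart for Sgpp2 and 0.58 apart for Mme. Spatc1l, Palmd, the taste receptor transporter Rtp3, AA986860, the hydrolase Cmbl and Fam107a changed by -0.74, -0.73, -0.69, -0.67, -0.66 and -0.63. The monoamine oxidase Maob, Cntnap5a, the CDC42 effector Cdc42ep2 and the glycerate kinase Glyctk changed by -0.61, -0.61, -0.59 and -0.58. Their adjusted p-values lay between 4.34e-05 and 0.00465. Rises outside the lists included the retinol dehydrogenase Dhrs9 at 0.99, the nectin-like adhesion protein Pvr at 0.87, the lysosomal protein Gpr137b at 0.81, the ESCRT subunit Vps37b at 0.80 and the pseudogene Hmga2-ps1 at 0.80, whose probes may share sequence with its parent. Their adjusted p-values lay between 4.52e-06 and 0.00065.

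Signalling and adhesion lists were mixed. In the BMP, TGF beta and Id list 3 of 34 measured members were called higher and 2 lower, and 3 and 1 held: the ubiquitin ligase Smurf1 rose by 0.58, the repressor Tgif1 by 0.40 and the effector Smad3 by 0.38, and Id2, an inhibitor of bHLH factors, fell by 0.66 (adjusted p = 3.54e-05, 0.00563, 0.00182 and 0.000256). In the Wnt and Notch list 3 of 40 measured members were called higher and 4 lower, and 2 and 1 held; the Notch effector Rbpj rose by 0.32 and its feedback gene Nrarp by 0.29, and the Notch-modifying Lfng fell by 0.34 (adjusted p = 0.00379, 0.00634 and 0.00289). In the YAP, SRF and cytoskeleton list 6 of 33 measured members were called higher and 3 lower, and 4 and 1 held, with the LIM protein Fhl2 at 0.61, thrombospondin 1, Thbs1, at 0.50 and the YAP target Ankrd1 at 0.36 (adjusted p = 0.00019, 0.000572 and 0.00194). After quantile normalization its counts were 4 and 3. In the keratin, junction and integrin list 7 of 38 measured members were called higher and 4 lower, and 5 and 2 held. The collagen receptor Itga2 read 9.56, 9.66 and 9.53 in the medium arrays and 10.61, 10.57 and 10.67 in the diquat arrays (log2 change 1.03 ± 0.0444 (SE), 2.05-fold, adjusted p = 1.61e-06), with the closest arrays of the groups 0.91 apart. The keratin Krt23 rose by 0.84, the claudin Cldn4 by 0.52 and the fibronectin receptor Itga5 by 0.42, while Itga1, another collagen receptor, fell by 0.40 (adjusted p = 6.72e-06, 0.000393, 0.00194 and 0.00303). Lower calls in it numbered 2 without medium replicate 1, medium replicate 2 or diquat replicate 2.

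Calls in the DNA replication and mitosis lists were all lower ones, and their number depended on the arrays and the scaling. On the deposited values lower calls made up 18.9% and 16.7% of measured members, against 2.89% over all genes. The median levels of these lists, 9.28 and 9.82, lay in the highest level bin, where 6.35% of genes were called lower. In the DNA replication list 0 of 37 measured members were called higher and 7 lower, with a median of -0.08, and 1 call held: Ccne1, cyclin E1, fell by 0.31 (adjusted p = 0.00179). Lower calls numbered 1 without medium replicate 1, medium replicate 3 or diquat replicate 1 and 4 without medium replicate 2 or diquat replicate 2, and they were 1 after centring and 15 after quantile normalization. In the mitosis list 0 of 36 measured members were called higher and 6 lower, with a median of -0.09, and 2 held, the proliferation antigen Mki67 at -0.27 and the anaphase activator Cdc20 at -0.26 (adjusted p = 0.00231 and 0.00571). Lower calls numbered 2 without medium replicate 1, medium replicate 3 or diquat replicate 1, 3 without medium replicate 2 and 10 without diquat replicate 3, and they were 2 after centring and 12 after quantile normalization. The mean difference of the mitosis list was 0.02, -0.01 and -0.01 in the medium arrays and -0.10, -0.15 and -0.03 in the diquat arrays, so diquat replicate 3 was nearest to medium. Of cyclins, CDK inhibitors and quiescence genes 4 of 28 measured members were called higher and 4 lower, and 2 and 1 held; the cyclin Ccnd2 rose by 0.24 and the CDK4 inhibitor Cdkn2c fell by 0.33 (adjusted p = 0.0058 and 0.00127). Lower calls there numbered 1 without medium replicate 1, medium replicate 2, diquat replicate 1 or diquat replicate 2 and 2 without medium replicate 3.

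Calls among ribosome biogenesis genes were small rises: 12 of 41 measured members were called higher and 0 lower, with a median of 0.15 and 39 of 41 members positive. Calls that held numbered 5 and included Utp15 and Utp4 of the small-subunit processome at 0.31 and 0.24, Wdr43 at 0.26 and the rRNA methyltransferase Nop2 at 0.23 (adjusted p = 0.00474, 0.00578, 0.00231 and 0.00557). The count was 7 without medium replicate 1 and 5 without medium replicate 2, and 14 after centring. Of 87 cytosolic ribosomal protein genes 2 were called higher and 1 lower (3.45%). Of histone lysine modifiers 8 of 38 measured members were called higher and 2 lower, and 5 and 0 held, led by the demethylases Kdm6b at 0.52, Kdm7a at 0.41 and Kdm3a at 0.35 and the methylases Kmt2d at 0.31 and Dot1l at 0.26 (adjusted p = 0.00054, 0.00209, 0.0112, 0.00494 and 0.00497). Higher calls numbered 5 without medium replicate 1, medium replicate 3 or diquat replicate 1.

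Protein quality control lists differed. In the ER chaperone and unfolded protein list 2 of 29 measured members were called higher and 5 lower, with a median of -0.05, and 2 and 4 held. This is 24.1% called, against 7.02% over all genes. The list's median level was 9.93, in the highest level bin, where 16.5% of genes were called. The sensors Ern1 and Atf6 rose by 0.39 and 0.34, and Xbp1 and the chaperone cofactor Sdf2l1 fell by 0.39 and 0.29 (adjusted p = 0.000175, 0.00065, 0.00195 and 0.00188). Of heat shock proteins 3 of 33 measured members were called higher and 0 lower, and 1 held, the small chaperone Hspb8 at 0.23 (adjusted p = 0.00725). Of proteasome and ubiquitin genes 2 of 33 measured members were called higher and 0 lower, and the call of Sqstm1, the autophagy receptor p62, held (log2 change 0.36, adjusted p = 0.000824). Of autophagy and lysosome genes 4 of 35 measured members were called higher and 1 lower, and 3 held, with the ATG8 relative Gabarapl1 at 0.27 and Wipi2, which acts in phagophore formation, at 0.26 (adjusted p = 0.00937 and 0.00421). After quantile normalization 4 autophagy genes were called lower. The heat shock, proteasome and autophagy lists had 9.09%, 6.06% and 14.3% of measured members called. Their median levels also lay in the highest level bin.

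Of the respiratory chain list 7.69% was called, and of the citrate cycle and mitochondrial carrier list 9.38%, against 7.02% over all genes. Their median levels, 10.31 and 9.99, lay in the highest level bin, where 16.5% of genes were called. Of the nuclear-encoded respiratory chain 0 of 39 measured members were called higher and 3 lower, at a median level of 10.31, 0 of these calls held, and 0 were called after centring. Of citrate cycle genes and mitochondrial carriers 2 of 32 measured members were called higher and 1 lower, and 2 held: the pyrimidine nucleotide carrier Slc25a33 rose by 0.36 and the ATP carrier Slc25a25 by 0.26 (adjusted p = 0.0118 and 0.00448). Of interferon-stimulated genes 4 of 28 measured members were called higher and 0 lower, with a median of 0.13 and 24 of 28 members positive, and 3 held; the antiviral genes Ifit1 and Rsad2 rose by 0.51 and 0.38 (adjusted p = 0.00303 and 0.006). Of clock genes 2 of 20 measured members were called higher and 1 lower, and 1 held, the casein kinase Csnk1e at 0.28 (adjusted p = 0.00387). Of metallothionein and zinc genes 2 of 16 measured members were called higher and 0 lower, and 1 held, the zinc carrier Slc30a4 at 0.21 (adjusted p = 0.00565). The metallothioneins Mt1 and Mt2, which share the promoter type of the transgene, changed by -0.09 and -0.07 (adjusted p = 0.339 and 0.471). Of polyamine, nucleotide and heme genes 1 of 28 measured members were called higher and 3 lower, and 1 and 1 held: the spermine oxidase Smox rose by 0.50 and the heme enzyme Urod fell by 0.23 (adjusted p = 0.00465 and 0.00895). The interferon, metallothionein and polyamine lists had 14.3%, 12.5% and 14.3% of measured members called. Their median levels too lay in the highest level bin. The cytoskeletal reference gene Actb changed by 0.07 (adjusted p = 0.399).

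**Figure D3:**
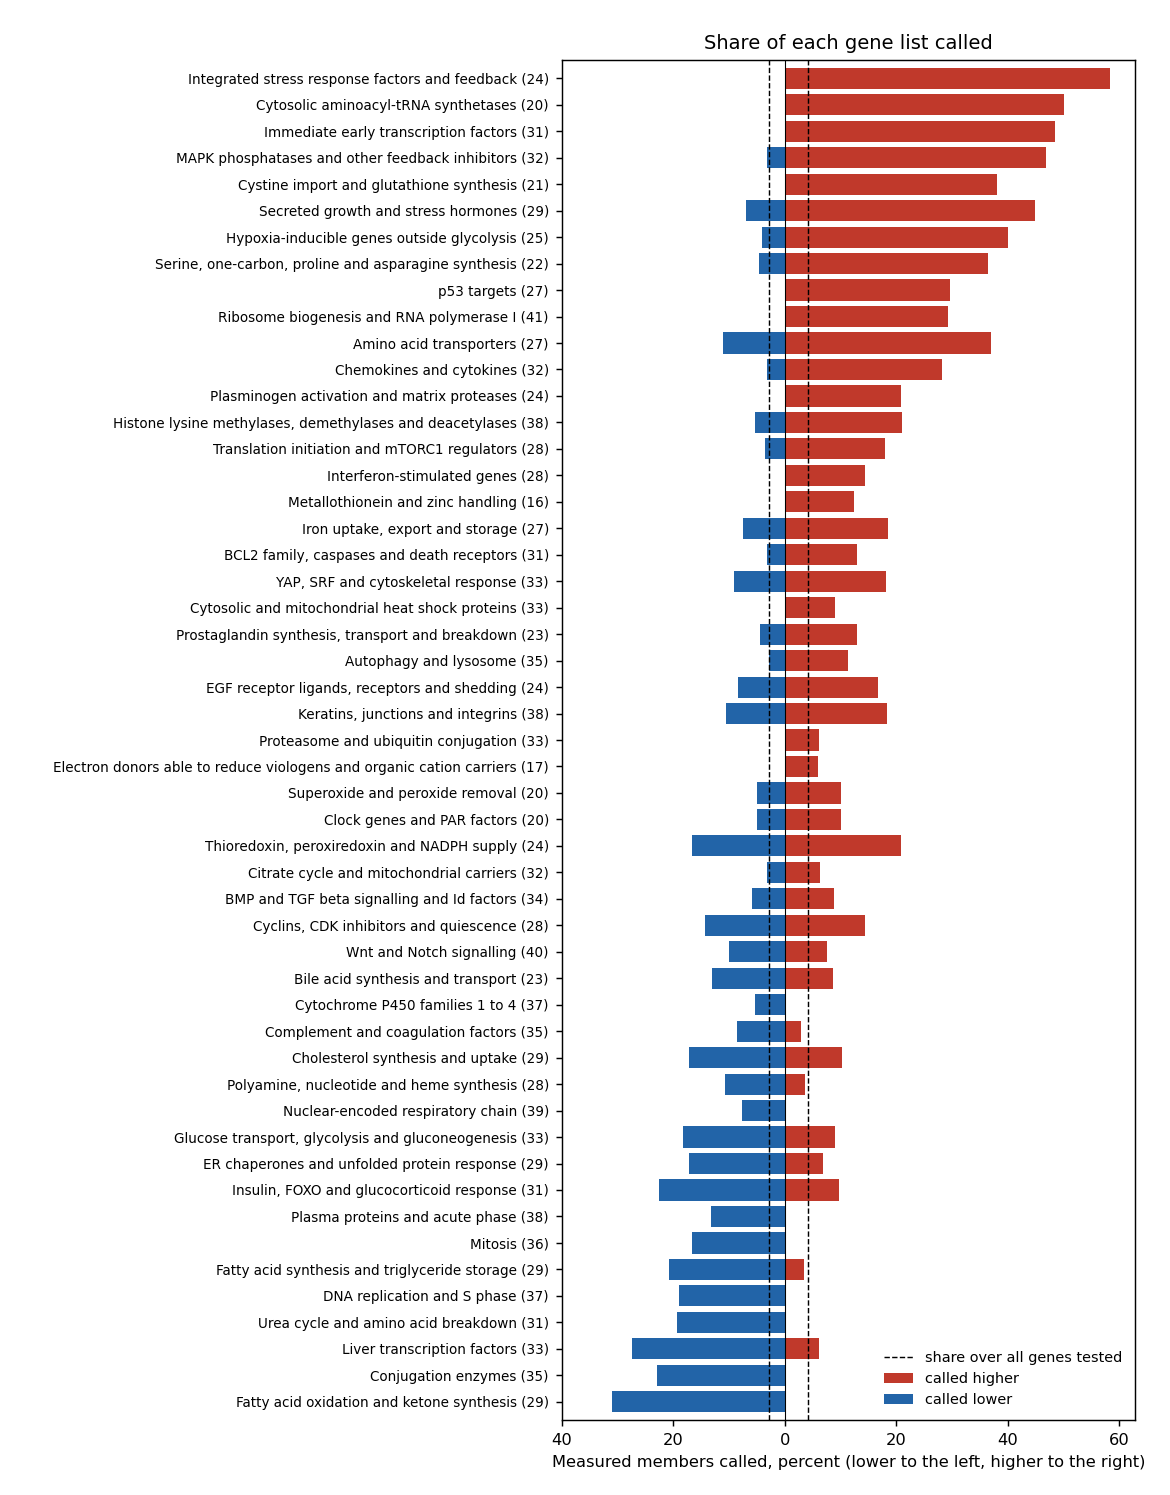
Percent of the measured members of 51 gene lists called higher (red, to the right) and lower (blue, to the left) with diquat, number measured in brackets; dashed lines mark 4.13% higher and 2.89% lower over all genes tested. The integrated stress response list stands first with 14 of 24 members higher, and fatty acid oxidation stands last with 9 of 29 lower.

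Small nucleolar RNAs had a larger share of higher calls than genes in general. Of 78 small nucleolar RNAs, which guide chemical modification of ribosomal RNA, 19 were called higher and 0 lower (24.4%, against 4.13% over all genes), with a median log2 change of 0.42, and 31 of the 78 had diquat arrays above every medium array. Over all genes tested 21.3% had no overlap between groups, in either direction. The rise differed between the diquat arrays: their median differences from the medium mean were 0.14, 0.34 and 0.61, against -0.06, 0.03 and 0.06 in the medium arrays. In diquat replicates 1, 2 and 3, 38, 65 and 67 of the 78 lay above their highest medium array. Replicate 3, which also stood apart over all genes, was highest, and the part of that array's difference in the result was not tested. Higher calls numbered 7 without medium replicate 1, 10 without medium replicate 2, 11 without medium replicate 3 and 30 without diquat replicate 1. Without diquat replicate 3 there were 14 and the median was 0.27, and with the 2 groups alone 8 were called.

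Snord118, the U8 RNA of large-subunit processing, read 6.41, 6.41 and 6.97 in the medium arrays and 8.09, 7.97 and 8.12 in the diquat arrays (log2 change 1.46 ± 0.125 (SE), 2.76-fold, adjusted p = 0.000114). Rnu3a, a U3 RNA of small-subunit processing, read 6.68, 6.72 and 6.60 in the medium arrays and 8.43, 8.41 and 8.73 in the diquat arrays (log2 change 1.86 ± 0.0859 (SE), 3.62-fold, adjusted p = 2.31e-06). 2900060B14Rik, a gene model, read 7.91, 7.98 and 7.91 in the medium arrays and 10.37, 10.56 and 10.62 in the diquat arrays (log2 change 2.58 ± 0.0612 (SE), 5.99-fold, adjusted p = 3.12e-08), a rise about as large as that of Slc7a11. In all 3 the diquat arrays lay above every medium array. Of 484 microRNA genes 10 were called higher and 5 lower (3.10%). The lowest gene models and small RNAs were Gm5154 at -0.69, A530020G20Rik at -0.44 and Mir1199 at -0.43 (adjusted p = 0.00057, 0.0267 and 0.000675). The call of A530020G20Rik was lost without any 1 of 4 arrays (adjusted p = 0.0637 without medium replicate 1, adjusted p = 0.062 without medium replicate 3, adjusted p = 0.0784 without diquat replicate 1 and adjusted p = 0.0634 without diquat replicate 2).

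**Figure D4:**
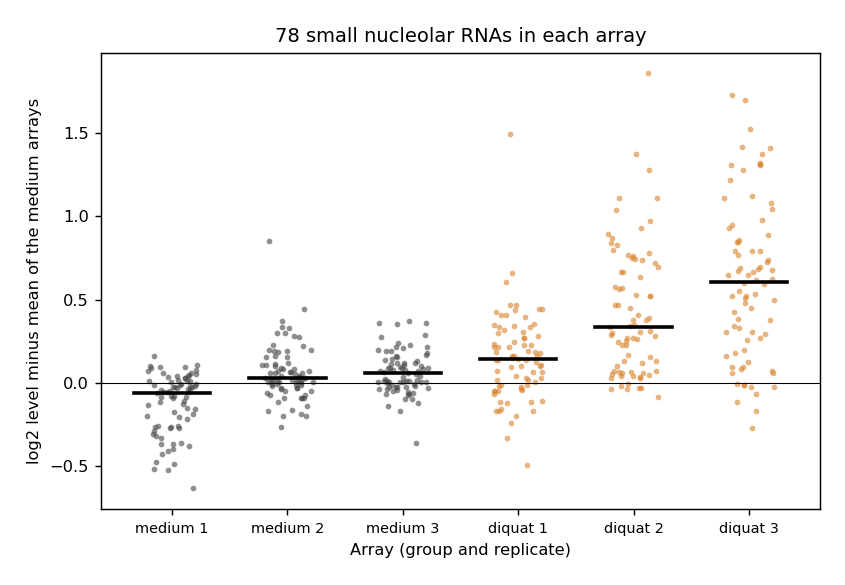
Level of each of 78 small nucleolar RNAs (points) in the 3 medium and 3 diquat arrays, as log2 difference from its medium mean; horizontal bars are array medians. The bars of the diquat arrays stand at 0.14, 0.34 and 0.61, and those of the medium arrays between -0.06 and 0.06.

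Among called genes, the 5 largest gaps between 1 diquat array and the other two were those of small RNAs and a gene model: Snora75 (replicate 1, 0.61), Gm8995 (replicate 2, 0.54), Snord52 (replicate 3, 0.48), Snord49a (replicate 1, 0.43) and Mir1931 (replicate 3, 0.40). Snora75 read 8.27, 8.60 and 8.73 in the medium arrays and 8.75, 9.36 and 9.42 in the diquat arrays (adjusted p = 0.0453), and its call was lost in 5 of the 6 fits without 1 array (adjusted p between 0.0594 and 0.153). Snord49a was lost in the same number (0.0668 to 0.129) and Gm8995 too (0.115 to 0.148). Snord52 was lost without medium replicate 1 (adjusted p = 0.0635 without medium replicate 1) and Mir1931 without medium replicate 1 or 2 (adjusted p = 0.0762 without medium replicate 1 and adjusted p = 0.102 without medium replicate 2).

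Paraquat, the other bipyridylium herbicide of the study, was given at 126 µM, so the doses differ and no comparison is made. Both contrasts use the same 3 medium arrays, which ties their values together. For the 30 genes that rose most with diquat the fold was 1.51 to 5.28 with paraquat, and for the 30 that fell most 1.32 to 2.15. Slc7a11 changed by 2.62 with diquat and 2.40 with paraquat, Ptgs2 by 2.29 and 2.14, Mmp13 by 1.37 and 0.98, Atf3 by 0.93 and 1.15 and Txnip by -1.14 and -0.87. Tat changed by -0.53 and 0.05 (adjusted p with paraquat 0.855), and Kmt2d by 0.31 and 0.03 (0.901). The small nucleolar RNAs had array medians of 0.29, 0.29 and 0.22 with paraquat. Differences between the compounds were not tested.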

How the data were processed

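Each of 9 arrays (3 medium, 3 diquat, 3 paraquat) was one Affymetrix Mouse Gene 2.1 ST hybridization. The authors deposited log2 values per feature, made with Affymetrix Expression Console 1.1 and RMA per the submitters' processing notes. Dim probes could not be told from background, as only the value table was used. Groups and replicate numbers came from the sample titles, since the description field says replicate 1 for replicates 2 and 3 of both herbicides.

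Of 34472 features, 23521 had 1 gene symbol, 1814 several and 9137 none; 23328 matched RefSeq GRCm38.p6 by Entrez identifier. For 1082 genes with several features the one with the highest mean was kept, which gave 22180 genes. Por had no such feature. All 9 arrays were fitted with limma 3.58.1 (lmFit and eBayes, R 4.3.3), 1 mean per group. Adjusted p-values are limma's, by Benjamini-Hochberg over the 22180 genes, and a gene was called at an adjusted p of 0.05. Errors are limma standard errors and intervals are 95%. The number of arrays limits the precision.

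Named genes were drawn from the 30 highest and 30 lowest called annotated genes without overlap between groups, up to 6 called members of each list with the largest change (the largest 2 if none passed), fixed genes, the 3 highest and 3 lowest called gene models or small RNAs, and the 5 called genes with the largest gap of 1 diquat array. Of the list members so drawn, most whose calls did not hold were left out of the text. The members named therefore look sturdier than their lists. The members and lists were chosen with earlier results of these data known. On simulated data for diquat against medium (22180 genes), the fit recovered 89.6% of 67 genes changed by 0.3, 100% of 67 by 0.5 and 100% of 66 by 1, and called 18 unchanged genes. The simulated noise was independent and normal, with each gene's variance taken from the fit, equal in all groups and without array-wide differences. The real diquat arrays differed more from their group mates than the medium arrays did, so these rates may not carry over to the real arrays. Alternatives were a replicate block, median centring, quantile normalization, a filter on dim genes (mean under 5), the 2 groups alone, a trended robust prior, the mean of features and leaving out each array.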

Additional observations from a re-analysis of the deposited data

How the results depend on the processing

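Without 1 array the calls numbered 802 to 1908, with 504 to 1109 higher and 274 to 799 lower; those of at least 1.5-fold numbered 103 to 135 and those of at least 2-fold 22 to 30. Calls lower numbered 311 after median centring and 1019 after quantile normalization, against 641. With the 2 groups alone 959 were called, 582 higher and 377 lower. The causes of these moves were not tested. With the replicate block 1416 were called, of which 1292 were shared with the 1558. Deviations of same-numbered medium and diquat arrays correlated at 0.043, 0.075 and -0.107. Those of medium and paraquat arrays correlated at 0.157, 0.134 and 0.0893, and those of diquat and paraquat arrays at -0.192, 0.198 and -0.124. The numbers were not taken to pair the arrays, and the replicate block was kept as an alternative. Directions that reversed were all in genes not called: Sod2 was -0.005 after quantile normalization and from -0.005 (without diquat replicate 3) to 0.045 without 1 array, Gapdh -0.0202 after quantile normalization and Alb 0.0283 after centring. Of the called genes named in the text 193 of 209 were called under every alternative tried. Most list members whose calls did not hold were left out of the text, so this high share is partly built in. Over all calls 659 of 1558 held with each array left out in turn. The median over all genes was -0.017 as deposited, 0.018 after centring and -0.012 after quantile normalization. Few genes of low level were called; the cause was not tested.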

Other observations

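The interferon-inducible p200 genes, a cluster of DNA-sensing proteins picked after their values were seen, were called higher in 5 of 9 measured members and lower in 0, against 7.02% called over all genes; 3 of these calls held with each array left out in turn. Ifi205 read 5.93, 5.67 and 5.80 in the medium arrays and 7.03, 6.73 and 6.74 in the diquat arrays (log2 change 1.03 ± 0.0850 (SE), 2.05-fold, adjusted p = 8.35e-05). Ifi204 and Ifi202b rose by 0.73 and 0.73, and Ifi207 and Mndal by 0.26 and 0.22 (adjusted p = 0.000948, 0.000124, 0.0467 and 0.0271). Without 1 array Ifi207 lost its call in 5 of 6 fits (adjusted p up to 0.134) and Mndal in 4 of 6 (up to 0.109). These genes are close copies, so their probes may share signal and the members are not independent.

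A change of at least 1.5-fold without a call was seen for 15 genes, of which 12 were small RNAs and 2 protein coding. The protein-coding genes were Rabggtb, a geranylgeranyl transferase subunit, with a log2 change of 1.06 (adjusted p = 0.107), and Tuba1b, a tubulin, with 0.64 (adjusted p = 0.0735). The microRNA gene Mir505 rose by 0.74 with diquat (adjusted p = 0.000498) and changed by 0.06 with paraquat. The difference between the compounds was not tested.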
